A study of Mus musculus with 4 samples.

Results

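The genes that make cholesterol and fatty acids, together with the regulators that control them and the pumps that remove cholesterol from the cell, were examined in splenic CD4+ T cells of mice with and without a conditional deletion of *Satb1*. The set holds 33 genes, given as a list of gene names and matched on gene symbol, of 55367 gene symbols in the count tables. It comprises 18 sterol synthesis genes, 6 genes for control by the sterol regulatory element-binding proteins (SREBPs) and sterol transport, 7 fatty acid synthesis genes and the 2 efflux genes *Abca1* and *Abcg1*. All 33 symbols were found.

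RNA was sequenced in 4 libraries, 2 from wild type mice (WT) and 2 from mice labelled *Satb1* conditional knockout (cKO). All were of C57BL/6 background, adult and untreated, and the cells were CD4+ T cells of the spleen. The design gives the cKO genotype as Satb1 F/F; ThPOK-cre, where F marks alleles flanked by sites that the Cre recombinase cuts. ThPOK-cre acts in cells that have committed to the CD4 lineage, so the deletion covers conventional CD4+ T cells and regulatory T cells alike, and whether the WT mice carried either allele is not stated in the sources used here.

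Cells make cholesterol from acetyl-CoA through the mevalonate pathway, which runs through the isoprenoids to squalene, and a further series of enzymes turns squalene into cholesterol. When membrane sterol is low, the carrier Scap brings SREBPs from the endoplasmic reticulum to the Golgi, where they are cut and released to switch on the synthesis genes. Insig proteins hold Scap back when sterol is high. Liver X receptors (LXRs), which sense oxidised sterols, drive the efflux pumps instead, and activated T cells are known to raise SREBP targets and hold down LXR targets before they divide.

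Each library held between 4495902 and 6555699 reads counted in genes, and levels are in CPM, which expresses a gene's count relative to its library's total, with totals scaled by edgeR's TMM method. A count of 3, taken as the detection floor, corresponds to between 0.458 and 0.667 CPM. Genes were tested with edgeR's quasi-likelihood F test, with Benjamini-Hochberg adjustment over the 12403 genes that passed its low-count filter, and a gene is described as called when its adjusted p was under 0.05. With 2 mice per genotype, 533 genes were called. *Satb1* itself was counted 5677 and 4390 times in the WT libraries and 4958 and 3986 times in the cKO libraries, with an adjusted p of 0.877, and a count over the whole gene does not show whether the deleted part is present. The WT libraries had 5447 and 4235 counts of the X-inactivation transcript *Xist* and the cKO libraries 9 and 6, while the Y-linked *Ddx3y* had 0 and 0 against 525 and 597, so sex and genotype cannot be told apart in any result here. Differences in the number of expressing cells and in the RNA per cell also cannot be told apart in bulk RNA.

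Of the 33 genes, 30 passed the low-count filter, and 24 of these had a lower fitted level in cKO than in WT cells. Genes called lower numbered 3, *Mvd*, *Stard4* and *Acaca*, against 1.95% of all tested genes that were called lower. No gene of the set was called higher by edgeR, against 2.35% of tested genes, and none was higher at an unadjusted p under 0.05, against 9.72% of tested genes, where 10 were lower, against 9.39%. DESeq2 called none in either direction. The cKO libraries both lay below both WT libraries for 15 of the 30 genes, against 25.4% of all tested genes, and both lay above for 2, against 24.8%. The remaining 13 overlapped. The median log2 difference, cKO minus WT, was -0.27 over the 30 genes, -0.39 over the 17 tested sterol synthesis genes and -0.046 over the 5 tested fatty acid genes, beside -0.0015 over all tested genes.

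**Figure D1:**
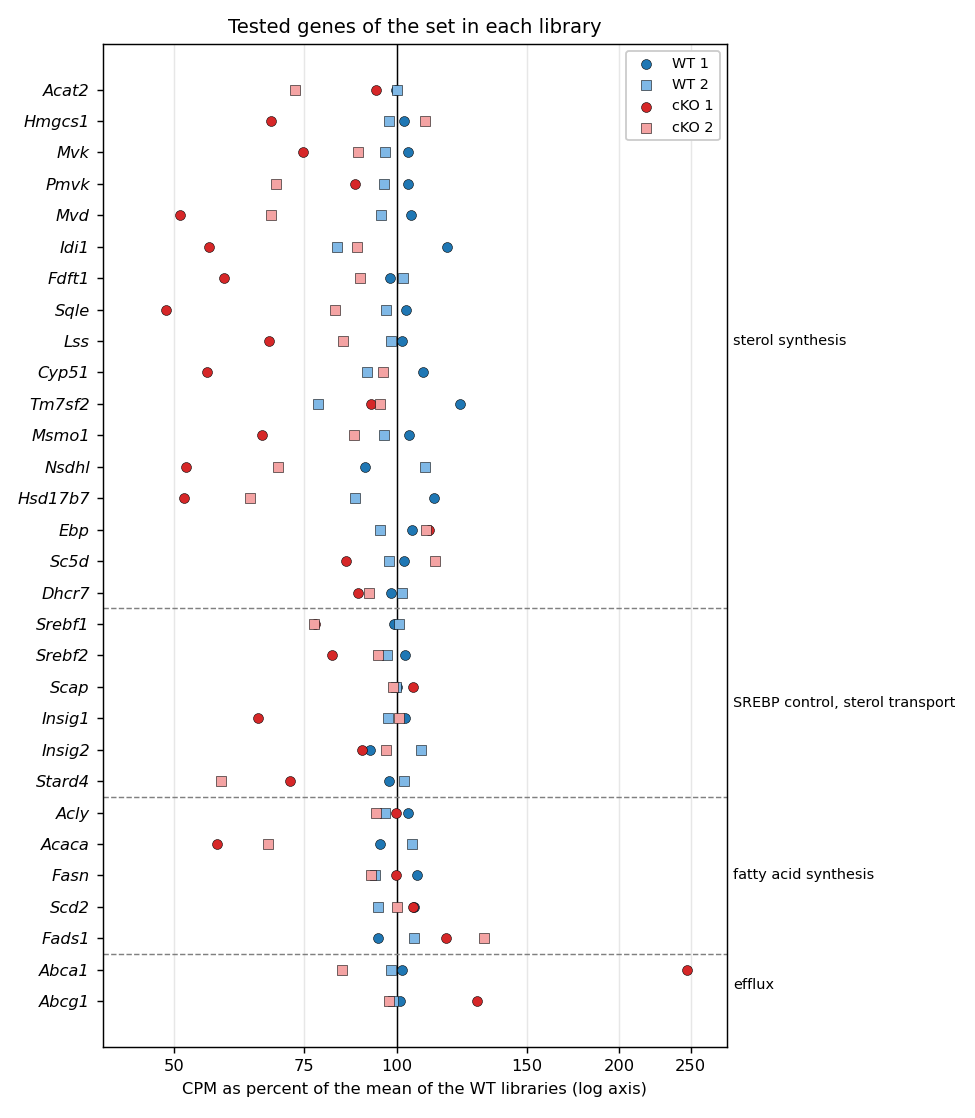
Level of each of the 30 tested genes in each library, as percent of the mean of the WT libraries on a log axis, with circles for mouse 1 and squares for mouse 2 of each genotype. The cKO 1 points of *Sqle*, *Mvd*, *Hsd17b7* and *Nsdhl* sit between 48.7% and 51.9%, and that of *Abca1* at 247%.

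The mevalonate steps were led by *Mvd*, the decarboxylase that makes isopentenyl diphosphate, which had 34.9 and 31.8 CPM in WT cells and 17.0 and 22.5 CPM in cKO cells. The groups did not overlap, and *Mvd* fell to 0.589-fold of WT (95% interval 0.446 to 0.776, adjusted p = 0.0478). Its gene lies on the minus strand of chromosome 8, from 122433601 to 122443422 in GRCm38, and none of its 50-base words recurs in another annotated gene. The adjusted p was 0.158 without WT 1, 0.168 without WT 2, 0.116 in DESeq2, 0.0535 on unscaled library totals and 0.0508 without the genes on X and Y, and over all settings it ranged from 0.000157 to 0.168.

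The enzymes before *Mvd* were not called. *Hmgcs1*, the synthase that commits acetyl units to the pathway, had 86.6 and 82.5 CPM in WT, 57.2 in cKO 1 and 92.5 in cKO 2, so the cKO libraries lay on either side of WT. *Mvk*, which phosphorylates mevalonate, had 16.4 and 15.2 CPM against 11.8 and 14.0. *Pmvk*, the next kinase, had 19.6 and 18.1 CPM against 16.6 and 12.97. Both cKO values of each kinase lay below both WT values, with adjusted p of 0.483 and 0.390. *Acat2*, a thiolase at the entry of the pathway, had 18.0 and 18.1 CPM against 17.0 and 13.2, and 39.1% of its 50-base words are shared with other genes, *Acat3* among them, so its counts are uncertain. *Acat2* and *Pmvk* were the sterol genes that were lower in cKO 2 than in cKO 1 by at least 1.25-fold.

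*Idi1*, the isomerase after *Mvd*, had 10.4 and 7.39 CPM in WT and 4.95 and 7.86 CPM in cKO, and the groups overlapped. Of its 50-base words 25.3% recur in other annotated genes, so its counts are uncertain as well. *Fdps*, which builds farnesyl diphosphate, was counted 11, 7, 8 and 7 times in WT 1, WT 2, cKO 1 and cKO 2 and was not tested. Of its 50-base words 26.2% recur in other genes, including pseudogenes, and *Gm43738* overlaps 26.7% of its exonic bases on the same strand. Both make the counts of *Fdps* uncertain, so its level cannot be read from them.

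The squalene steps showed a large gap between the cKO mice. *Sqle*, the squalene epoxidase, had 53.7 and 50.4 CPM in WT, 25.3 in cKO 1 and 42.9 in cKO 2. *Fdft1*, the squalene synthase, had 39.0 and 40.6 CPM against 23.2 and 35.5. *Lss*, which folds the epoxide into lanosterol, had 29.7 and 28.7 CPM against 19.6 and 24.7. For these 3 enzymes both cKO libraries were below both WT libraries and cKO 1 was the lower, but the spread between the cKO mice was wide and the adjusted p were 0.162 for *Sqle*, 0.261 for *Fdft1* and 0.231 for *Lss*. Without cKO 2, *Sqle* was called at an adjusted p of 6.81e-06, and without cKO 1 its adjusted p was 0.216. *Fdft1* overlaps *Ctsb* on the other strand over 18.3% of its exonic bases, and whether the counting used strand is not stated in the sources used here. Of the 50-base words of *Fdft1* 26.5% recur in other annotated genes, so its counts are uncertain. Other genes also overlap *Fdps* over 26.7%, *Hmgcs1* over 12.1%, *Tm7sf2* over 12.1% and *Scap* over 13.2% of exonic bases. For *Fdps* and *Tm7sf2* the overlap is on the same strand.

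Among the enzymes that convert lanosterol to cholesterol, the pair nearest to a call were *Hsd17b7* and *Nsdhl*, which act together in removing methyl groups. *Hsd17b7* had 20.3 and 15.9 CPM in WT and 9.34 and 11.5 CPM in cKO, a log2 difference of -0.82 (SE 0.23, adjusted p = 0.0886). *Nsdhl*, which lies on the X chromosome, had 20.6 and 24.9 CPM against 11.8 and 15.7, a log2 difference of -0.72 (SE 0.21, adjusted p = 0.101). The genotypes did not overlap for either gene, but neither passed the threshold.

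*Cyp51*, the lanosterol demethylase, had 83.8 and 70.4 CPM in WT, 42.7 in cKO 1 and 74.0 in cKO 2. *Msmo1*, a methyl sterol oxidase, had 37.0 and 34.3 CPM against 23.4 and 31.2. In both, cKO 1 was far below the other 3 libraries, and cKO 2 lay within the WT range for *Cyp51* and just under it for *Msmo1*. *Tm7sf2*, a sterol reductase, was near 5 CPM in all libraries, with 6.27 and 4.03 CPM in WT and 4.76 and 4.89 CPM in cKO.

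The last enzymes of the pathway had differences closer to 0. *Dhcr7*, which makes cholesterol from its precursor, had 69.7 and 72.1 CPM in WT and 62.9 and 65.0 CPM in cKO. *Sc5d*, a desaturase, had 71.1 and 67.9 CPM against 59.5 and 78.4. *Ebp*, a sterol isomerase on the X chromosome, had 42.4 and 38.3 CPM against 44.6 and 44.2 and was the single tested sterol gene with a positive difference, of 0.13 (SE 0.13, adjusted p = 0.631).

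**Figure D2:**
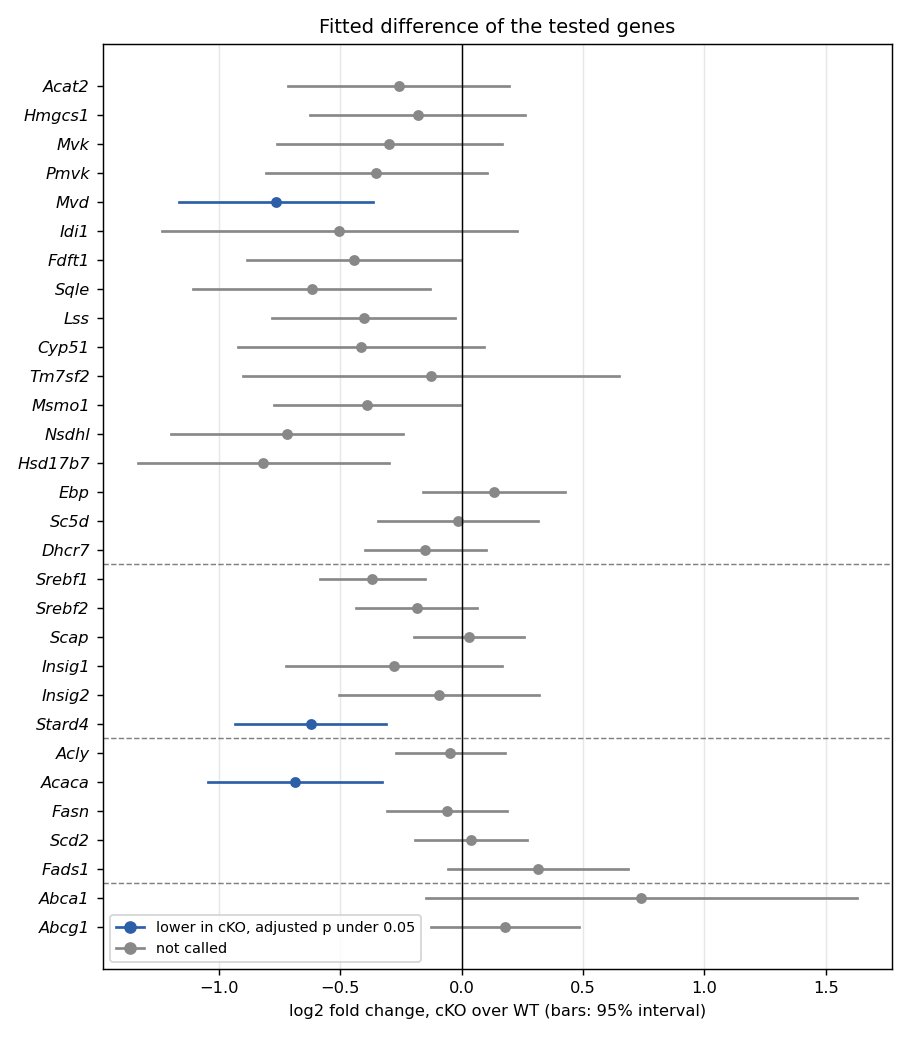
Fitted log2 difference, cKO minus WT, of each tested gene, with its 95% interval, called genes in blue and the others in grey. *Mvd*, *Stard4* and *Acaca* are the called genes, and the interval of *Abca1* runs from -0.15 to 1.63.

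The levels of the sterol synthesis genes were also compared between the cKO mice. Of the 17 tested, 14 were lower in cKO 1 than in cKO 2, against 48.9% of all tested genes. Among the 14, 10 were lower by at least 1.25-fold, against 17.4% of all tested genes. In the other direction 2 were higher in cKO 1 by that fold, against 15.3%. The median ratio of cKO 1 to cKO 2 over the 17 genes was 0.758, beside 1.005 over all tested genes. Their median ratio of WT 1 to WT 2 was 1.07. In cKO 1 their median log2 level relative to the WT mean was -0.57, and in cKO 2 it was -0.17. Without cKO 1 the median fitted log2 difference was -0.20 in place of -0.39.

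Cell cycle genes varied among the same libraries. All 10 cycling markers examined had a lower fitted level in cKO. *Rrm2* alone was called, against 1.95% of all tested genes called lower. The 10 markers summed to 834 and 814 CPM in WT, 448 in cKO 1 and 546 in cKO 2. *Mki67*, a marker of dividing cells, had 162 and 198 CPM in WT, 35.3 in cKO 1 and 98.2 in cKO 2. Of the 10 markers 7 were lower in cKO 1 than in cKO 2, against 48.9% of all tested genes, and *Mcm2*, *Mcm3* and *Mcm5* were lower in cKO 2. Of 6 genes that respond to the handling of cells, which summed to 391 and 316 CPM in WT and 513 and 387 CPM in cKO, 5 were tested. Of the 5, 2 heat shock genes were called higher, against 2.35% of all tested genes. *Dnajb1* had 117 and 85.8 CPM in WT and 228 and 166 CPM in cKO (fold 1.93, adjusted p = 0.0233), and *Hspa1b* had 0.765 and 1.57 CPM against 8.19 and 3.83 (fold 5.40, adjusted p = 0.0440). The others tested were not called, with *Fos* at 17.1 and 24.4 CPM in WT and 14.7 and 14.2 CPM in cKO, *Jun* at 6.27 and 9.41 CPM against 9.91 and 12.97, and *Egr1* at 249 and 193 CPM against 250.6 and 189.8. The part of cell division and of handling in the sterol gene levels was not tested.

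The windows around the transcription start, from 250 bases before to 50 after, are shown for 3 genes. These are *Hmgcs1*, which has a sterol response element, the called gene *Mvd* and the efflux gene *Abca1*. The windows were searched for letters through which SREBPs and their partners are known to act, and not for LXR elements. They are RefSeq sequences of GRCm38.p6 for *Hmgcs1* (chr13:119690101-119690400, plus strand), *Mvd* (chr8:122443373-122443672, minus strand) and *Abca1* (chr4:53159846-53160145, minus strand), each written along its gene. Capitals mark matches on either strand to the sterol response element TCACNCCAC, the NF-Y box CCAAT, the GC box GGGCGG and the E box CACGTG.
Hmgcs1: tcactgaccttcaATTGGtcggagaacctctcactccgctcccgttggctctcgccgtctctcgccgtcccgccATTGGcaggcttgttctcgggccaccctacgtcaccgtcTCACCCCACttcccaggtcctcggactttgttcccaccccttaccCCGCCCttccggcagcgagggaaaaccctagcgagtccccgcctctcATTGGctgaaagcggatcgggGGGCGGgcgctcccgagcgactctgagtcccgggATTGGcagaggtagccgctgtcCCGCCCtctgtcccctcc
Mvd: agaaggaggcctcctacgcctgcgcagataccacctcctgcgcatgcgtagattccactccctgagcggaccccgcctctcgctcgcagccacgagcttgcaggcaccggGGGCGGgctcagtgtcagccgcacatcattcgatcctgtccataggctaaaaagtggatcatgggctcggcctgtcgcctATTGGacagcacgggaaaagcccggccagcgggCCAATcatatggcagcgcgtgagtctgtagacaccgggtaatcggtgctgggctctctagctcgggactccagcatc
Abca1: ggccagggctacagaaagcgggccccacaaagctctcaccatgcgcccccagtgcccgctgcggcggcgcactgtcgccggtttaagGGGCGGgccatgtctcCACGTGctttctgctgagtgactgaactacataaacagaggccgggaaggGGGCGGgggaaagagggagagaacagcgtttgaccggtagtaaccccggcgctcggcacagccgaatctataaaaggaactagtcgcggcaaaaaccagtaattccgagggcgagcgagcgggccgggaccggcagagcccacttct

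None of the marked letters overlap in these windows. The *Hmgcs1* window holds the sterol response element from 137 to 129 bases before the start, with 4 NF-Y boxes and 3 GC boxes. The *Mvd* window holds 2 NF-Y boxes and 1 GC box, and the *Abca1* window 2 GC boxes and 1 E box. Of the 33 genes, 25 had such a window. The NF-Y box was present in 20 of the 25 (80%) and in 41.1% of the 27025 genes with a window, and the GC box in 22 (88%) against 38.2%. The sterol response element was found in 1 of 25 against 1.44%, and the E box in 6 (24%) against 8.09%. The 27025 genes were not limited to the 12403 tested here, and shares among the tested genes were not computed. A gene with several annotated starts was counted if any window held the letters. These are matches of letters in windows of 300 bases, not measured binding sites.

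The SREBP regulators themselves were among the more abundant transcripts. In CPM per kilobase of exon (RPKM), *Srebf2*, which encodes the SREBP that mainly drives sterol genes, had the highest WT level of the set at 64.6, with *Acly* at 61.6 within its spread, followed by *Fasn* at 35.2, *Scd2* at 31.8 and *Srebf1* at 28.7. *Srebf1*, whose products favour fatty acid genes, had 160 and 163 CPM in WT and 126 and 125 CPM in cKO. The replicates were close and the groups well apart, with a log2 difference of -0.37 (SE 0.10), but the adjusted p was 0.0722, and it was 0.0194 without cKO 1, 0.0104 without cKO 2 and 0.487 without WT 2. *Srebf2* had 477 and 451 CPM against 379 and 438 (adjusted p = 0.409). Its cKO 2 value was close under WT 2.

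The partners of SREBP were not called. *Scap* had 129 and 129 CPM in WT and 136 and 127 CPM in cKO, a log2 difference of 0.030 (95% interval -0.19 to 0.26). *Insig1*, which is both a brake on SREBP and one of its targets, had 44.8 and 42.6 CPM in WT, 28.4 in cKO 1 and 44.0 in cKO 2, with cKO 2 inside the WT range and cKO 1 well below it. *Insig2*, the second brake, had 18.2 and 21.3 CPM against 17.7 and 19.1, and the groups overlapped.

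*Stard4*, a carrier that moves cholesterol between membranes in the cytosol, was called lower. It had 62.7 and 65.9 CPM in WT and 46.1 and 37.2 CPM in cKO. Here cKO 2 was the lower of the cKO libraries, unlike most sterol genes, and the groups were far apart. The fold was 0.650 (95% interval 0.524 to 0.807, adjusted p = 0.0421), and the adjusted p became 0.0700 without WT 1, 0.300 without WT 2 and 0.0760 in DESeq2, within a range of 0.000821 to 0.300 over all settings.

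**Figure D3:**
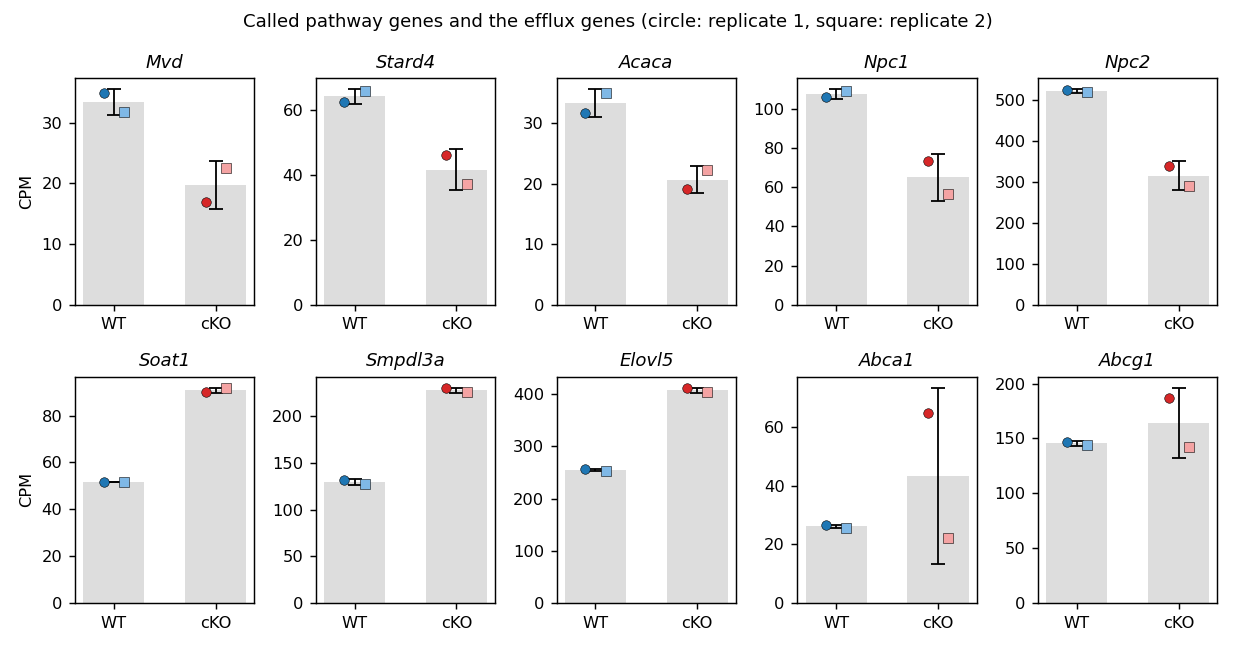
CPM of the called genes of the set, the called genes of the wider pathway list and the efflux genes, with bars at the genotype mean, error bars of 1 SD (n = 2), circles for mouse 1 and squares for mouse 2. *Npc2* goes from 526 and 520 CPM in WT to 340 and 290 CPM in cKO, and *Soat1* from 51.5 and 51.8 CPM to 89.9 and 91.6 CPM.

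Of the fatty acid genes 1 was called. *Acaca*, the acetyl-CoA carboxylase that commits carbon to fatty acids, had 31.7 and 35.0 CPM in WT and 19.1 and 22.3 CPM in cKO. The groups did not overlap, and *Acaca* fell to 0.622-fold (95% interval 0.485 to 0.798, adjusted p = 0.0482). The gene spans 84129672 to 84401651 on the plus strand of chromosome 11, and 30.4% of its 50-base words recur in other annotated genes, which makes its counts less certain than those of *Mvd*. The adjusted p was 0.0749 without WT 1, 0.331 without WT 2, 0.173 in DESeq2, 0.0527 on unscaled totals and 0.0512 without the genes on X and Y, with a range of 0.00159 to 0.331 over all settings.

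The enzymes on either side of *Acaca* were abundant and close between genotypes. *Acly*, which supplies cytosolic acetyl-CoA, had 336 and 314 CPM in WT and 325 and 305 CPM in cKO. *Fasn*, the fatty acid synthase, had 411 and 360 CPM against 385 and 356. *Scd2*, the main desaturase in these cells by counts, had 183 and 164 CPM against 183 and 174. The groups overlapped for all 3, and their 95% intervals ran from -0.27 to 0.18, from -0.31 to 0.19 and from -0.19 to 0.27 on the log2 scale.

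*Fads1*, a desaturase of polyunsaturated fatty acids, had 20.0 and 22.4 CPM in WT and 24.8 and 27.8 CPM in cKO, a log2 difference of 0.31 (SE 0.16, adjusted p = 0.340), with both cKO libraries above both WT libraries. *Scd1* was counted 4 and 3 times in WT, 38 times in cKO 1 and 8 times in cKO 2. *Fads2* was counted 5 and 5 times in WT, 0 times in cKO 1 and 1 time in cKO 2. Neither passed the low-count filter, and no fold is given for them.

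**Figure D4:**
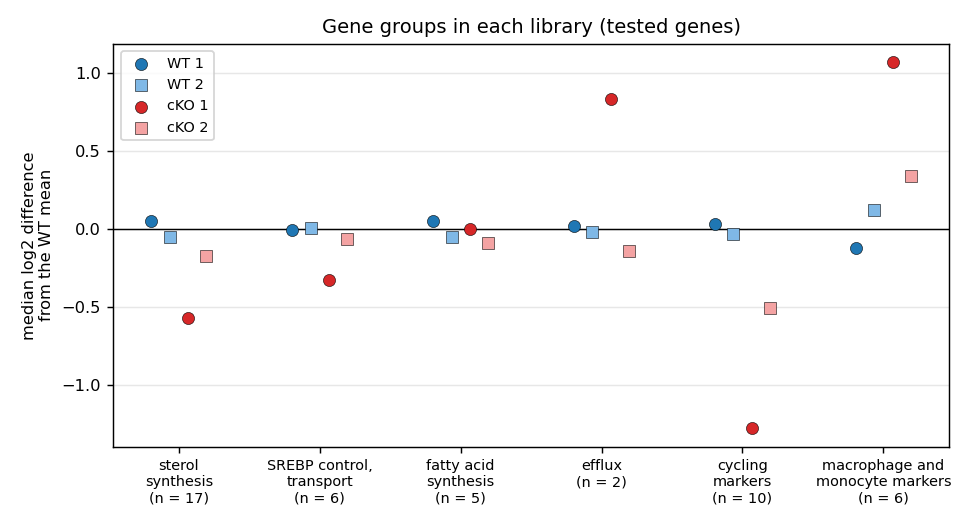
Median over the tested genes of each group of the log2 level relative to the WT mean, in each library, with cycling and macrophage and monocyte markers beside them. In cKO 1 the sterol median is -0.57 and the efflux median 0.84, and in cKO 2 they are -0.17 and -0.14.

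The efflux genes ran opposite to the sterol genes in 1 mouse. *Abca1*, the pump that loads cholesterol onto apolipoprotein A-I, had 26.6 and 25.8 CPM in WT, 64.8 in cKO 1 and 22.1 in cKO 2, from 174, 115, 340 and 104 counts. *Abcg1*, which exports cholesterol to high-density lipoprotein, had 147 and 144 CPM in WT, 187 in cKO 1 and 142 in cKO 2. For both genes cKO 1 stood above the other 3 libraries and cKO 2 was slightly below WT, so the groups overlapped. The log2 differences were 0.74 (95% interval -0.15 to 1.63, adjusted p = 0.350) for *Abca1* and 0.18 (95% interval -0.13 to 0.48, adjusted p = 0.525) for *Abcg1*. Without cKO 1 they were -0.25 and -0.038, and without cKO 2 both genes were called higher, at 1.31 and 0.36 (adjusted p = 9.17e-09 and 0.00614).

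Set side by side, the summed sterol synthesis level was 661 and 622 CPM in WT, 453 in cKO 1 and 593 in cKO 2. The summed efflux level was 174 and 170 CPM in WT, 252 in cKO 1 and 164 in cKO 2. Their ratio was 3.81 and 3.67 in WT, 1.80 in cKO 1 and 3.61 in cKO 2, so that the change in balance rested on a single mouse. The summed fatty acid level showed no such gap, at 984 and 897 CPM in WT and 943 and 887 CPM in cKO.

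Markers of other cell types differed between libraries, and the summed levels of macrophage and monocyte, B cell and neutrophil markers were highest in cKO 1. The summed level of 6 macrophage and monocyte markers was 34.7 and 40.6 CPM in WT, 86.7 in cKO 1 and 51.2 in cKO 2. Of the 6, 4 had a higher fitted level in cKO and *Lyz2* and *Cybb* were called higher, and none was at 0 in any library. Over all tested genes 2.35% were called higher and 1.95% lower, which is the background for each list here. *Csf1r* had 17.7 and 19.9 CPM in WT, 38.3 in cKO 1 and 18.9 in cKO 2, and *Lyz2* and *Adgre1* were likewise highest in cKO 1. *Cybb* was highest in cKO 2, at 15.5 CPM against 13.1 in cKO 1, and *Cd68* and *Itgam* were highest in WT 2. The 7 B cell markers summed to 13.9 and 13.7 CPM in WT, 53.7 in cKO 1 and 22.5 in cKO 2, and 1 of the 3 tested was called higher, while *Ebf1* was at 0 counts in cKO 2. The 5 neutrophil markers summed to 0 and 2.02 CPM in WT and 22.9 and 15.3 CPM in cKO, all 5 being at 0 counts in WT 1 and 2 of them, *Mmp8* and *Ly6g*, in WT 2, with *Ly6g* also at 0 in cKO 1, and 2 of the 3 tested were called higher. The 6 CD4+ T cell markers summed to between 4048 and 4443 CPM in all libraries. Other lists were lower in cKO 1 than in both WT libraries. The 2 CD8 T cell markers summed to 47.7 and 58.5 CPM in WT and 34.3 and 26.8 CPM in cKO, with *Cd8b1* called lower, and the 3 NK cell markers to 13.6 and 10.1 CPM against 4.57 and 1.06, with *Klrd1* called lower. The 4 dendritic cell markers summed to 4.74 and 6.05 CPM against 3.05 and 2.34, and the 3 erythroid markers to 61.0 and 229 CPM against 8.77 and 118. The part of these cells in the efflux gene levels was not tested.

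**Figure D5:**
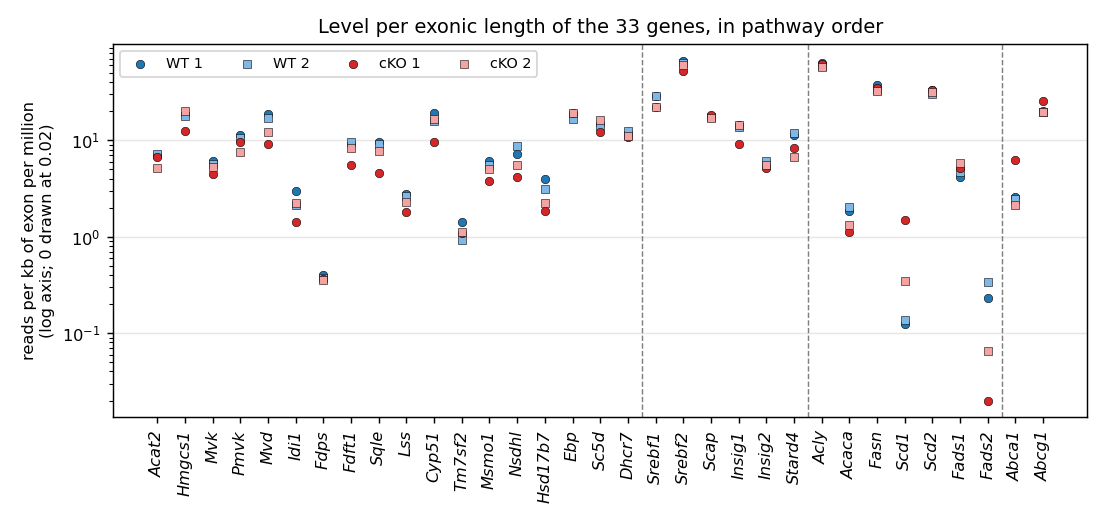
RPKM of every gene of the set in each library, on a log axis in pathway order, with a value of 0 drawn at the foot. In WT, *Srebf2* is highest at 64.6, and *Fdps* at 0.386, *Fads2* at 0.286 and *Scd1* at 0.131 are lowest. The counts of *Fdps* are uncertain, since 26.7% of its exonic bases overlap another gene.

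The surrounding pathway was covered by a further 51 genes for sterol uptake, storage, transport, LXR signalling and fatty acid handling, of which 43 were tested. Of these, 3 were called higher and 2 lower, against 2.35% and 1.95% of all tested genes. The fitted level was higher for 20 and lower for 23, and the median log2 difference of the 43 was -0.014. *Npc2*, which hands cholesterol to Npc1 inside the lysosome, had 526 and 520 CPM in WT and 340 and 290 CPM in cKO (fold 0.603, adjusted p = 0.00949). *Npc1*, the lysosomal exporter, had 106 and 110 CPM against 73.7 and 56.5 (fold 0.605, adjusted p = 0.0232). Both genes fell in both cKO mice, and cKO 2 was the lower, as for *Stard4*.

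*Soat1*, which esterifies cholesterol for storage, rose from 51.5 and 51.8 CPM in WT to 89.9 and 91.6 CPM in cKO (fold 1.76, adjusted p = 0.00560). *Elovl5*, an elongase of polyunsaturated fatty acids, rose from 256 and 253 CPM to 411 and 404 CPM (fold 1.60, adjusted p = 0.00626). *Smpdl3a*, a phosphodiesterase related to acid sphingomyelinase, rose from 132 and 127 CPM to 230.2 and 226 CPM (fold 1.76, adjusted p = 0.00287). In these 3 genes the mice of 1 genotype were nearly equal, in contrast to *Abca1* and *Sqle*. The 5 calls held in DESeq2 and were lost without WT 2, where the adjusted p lay between 0.0515 for *Smpdl3a* and 0.162 for *Npc1*. Regulatory T cell markers also differed, with a summed level of 435 and 361 CPM in WT and 795 and 1006 CPM in cKO. Most of that difference came from *Foxp3*, at 142 and 121 CPM in WT and 405 and 547 CPM in cKO. Called higher were 3 of 5, *Foxp3*, *Ctla4* and *Tnfrsf18*, against 2.35% of all tested genes, and *Ikzf2* overlapped between genotypes. The part of regulatory T cells in these levels was not tested.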

How the data were processed

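RNA of splenic CD4+ T cells from 2 WT and 2 cKO mice was sequenced as 1 library per mouse. The deposited files hold raw counts of reads per gene, which the authors made with HTSeq after alignment with HISAT2 2.1.0 to the mouse genome (GRCm38). The submitters' processing notes name HTSeq 0.11.1. The rows for reads in no feature, between 59.4% and 64.5% of uniquely aligned reads, were left out of the library totals.

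Counts were filtered with filterByExpr, scaled by TMM and fitted with edgeR 4.0.16 in R 4.3.3, with genotype as the sole term, and Benjamini-Hochberg adjustment covered all 12403 tested genes. DESeq2 1.42.0 was an alternative. The script was tested on simulated data. Standard errors were taken from the F statistic, and intervals are at 95%. Levels per length and gene positions used the exons of the GENCODE annotation of GRCm38, and start windows came from RefSeq. Every gene of the set was named, together with called genes of the wider list, whichever way they moved. The genes, lists and tests were chosen with earlier results of these data known. p-values rest on the spread between 2 mice per genotype, which the fit moderates for each gene with the spread of the other tested genes. Not all pathway genes examined are named here.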

Additional observations from a re-analysis of the deposited data

How the results depend on the processing

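With 2 mice per genotype, the number of called genes depended on the fit and on single libraries. Of 533 called genes, the counts became 1096 with the likelihood ratio test, 1367 with no low-count filter, 1165 with the replicate block and 153 at an adjusted p under 0.01, and ranged from 180 to 1790 without 1 library. Fits with 1 library in a genotype take it to vary like the other genotype.

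The 1 called sterol gene became 0 on unscaled totals, with DESeq2, without the genes on X and Y and at an adjusted p under 0.01, 3 with the likelihood ratio test, 4 with no filter and 4 with the replicate block, and 0 to 9 without 1 library. The 1 called regulator or transport gene became 0 with DESeq2 and at 0.01, 2 with the likelihood ratio test, no filter or the replicate block, and 0 to 4 without 1 library. The 1 called fatty acid gene became 0 on unscaled totals, with DESeq2, without X and Y and at 0.01, 2 with no filter, *Acaca* lower and *Scd1* higher, and 0 to 2 without 1 library, *Scd1* being called higher without cKO 2 as well. The efflux count of 0 became 1 with no filter, where *Abca1* had a log2 difference of 0.73 (adjusted p = 0.000659, range over all settings 9.17e-09 to 0.919), and 0 to 2 without 1 library. The wider list's 5 became 10 with no filter, 9 with the replicate block, and 0 to 10 without 1 library. The replicate numbers name different mice, and their deviations correlated at 0.064, so the block pairs nothing known.

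Without cKO 2, 17 genes of the set were called, 14 lower and 3 higher, among 1790 of 12955 tested genes, 827 lower and 963 higher. Without cKO 1, *Mvd*, *Stard4*, *Acaca* and *Srebf1* were called lower, among 1491 of 12758 tested genes, 788 of them lower. No gene of the set was called without WT 1, where 465 of 12838 genes were, or without WT 2, where 180 of 12987 were. Over all 15 settings, of which the 0.01 threshold reads the same fit again, *Mvd* was called in 9, *Acaca* in 9, *Stard4* in 11 and *Srebf1* in 5. The median sterol log2 difference stayed between -0.57 and -0.20 without 1 library, and the fatty acid median between -0.095 and 0.087. Leaving out 1 library turned the sign of *Abca1* (-0.25 to 1.31), *Abcg1* (-0.038 to 0.36), *Hmgcs1* (-0.56 to 0.13), *Tm7sf2* (-0.38 to 0.26), *Sc5d* (-0.23 to 0.17), *Scap* (-0.020 to 0.078), *Insig1* (-0.62 to 0.0044), *Insig2* (-0.20 to 0.013), *Acly* (-0.099 to 0.012), *Fasn* (-0.15 to 0.046) and *Scd2* (-0.043 to 0.13). The cause was not tested.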
